A study of Mus musculus with 16 samples.

Results

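The MYC network is a group of paired transcription factors that share the partner MAX, and its transcripts were followed here in mouse embryonic stem cells (ESCs) with and without depletion of RAM, the activating subunit of the mRNA cap methyltransferase RNMT. The 10 genes were chosen by name: the MYC genes Myc, Mycn and Mycl, their partner Max, the MXD genes Mxd1, Mxi1, Mxd3 and Mxd4, and the further MAX partners Mnt and Mga. All 10 of 10 were found among the 46983 genes listed, by matching Ensembl gene identifiers to mouse symbols, and all 10 were among the 12805 genes that passed a filter of a CPM (the count of a gene relative to the total of its library) of 1 or more in 10 or more of 16 libraries.

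The cells were 46C ESCs, a line that came from strain 129Ola, carries a GFP reporter at the Sox1 locus and represents 1 clone, grown without feeder cells on gelatin with leukaemia inhibitory factor (LIF). They received either RAM siRNA or a control siRNA with no target for 48 h, in 4 replicates each. From each lysate, made after a cycloheximide block of elongation, a part was kept as input (cytoplasmic RNA) and the rest was run on a sucrose gradient, from which fractions 17 to 22 were pooled as polysomes. The 4 groups were therefore control input, RAM siRNA input, control polysomes and RAM siRNA polysomes, with 4 libraries in each and 16647523 to 20147833 counts per library. The study's text describes them as biological replicates, so p-values measure the spread between repeats of the experiment in 1 cell line.

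MYC proteins bind DNA only when paired with MAX, and the pair reads the E-box CACGTG in promoters and recruits histone acetyltransferases. The MXD proteins and MNT compete for MAX, read the same E-box and bring the SIN3-HDAC corepressor instead. MGA is a very large protein that also pairs with MAX and is the scaffold of PRC1.6, a Polycomb complex that keeps germline genes silent in ESCs. Myc and Mycn are known for sustaining proliferation and self-renewal of ESCs, and LIF signalling feeds into Myc transcription.

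The siRNA was checked on its target. Ramac, the gene that encodes RAM, had 10.6, 10.1, 10.8 and 11.6 CPM in the control input libraries and 3.11, 2.67, 3.11 and 3.17 CPM in the RAM siRNA input libraries, so the groups did not overlap (log2 fold change -1.84, with a standard error, SE, of 0.11 and an adjusted p = 7.2e-06 in the quasi-likelihood test of edgeR). All 9 ESC markers examined were detected, among them Pou5f1 at 485.2 ± 46.4 CPM (SD, n = 4) in the control and 427.0 ± 47.6 CPM with RAM siRNA, both in input. The summed level of the 9 markers was 2952 to 3118 CPM in control input and 2519 to 2668 CPM in RAM siRNA input. Of the 9, 3 were called lower, or 8 with the replicate block described below, with all 9 estimates below 0. Of all 12805 genes tested, 12.9% were called in either direction (761 lower), and 39.3% with the block (2433 lower). The 6 fibroblast markers, of which 1 passed the filter, together stood at 8.05 to 9.68 CPM in control input and 9.22 to 11.4 CPM in RAM siRNA input, the 6 endoderm markers at 11.99 to 12.64 and 12.3 to 15.5 CPM, and the 6 neural markers at 75.0 to 85.6 and 81.3 to 94.2 CPM. Fewer cells of a type and less RNA per cell cannot be told apart in such libraries, and whether these shifts in markers play a part in the results below was not tested.

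Same-numbered libraries of the RAM siRNA and control groups departed from their group means together (Pearson's r over genes, 0.407 to 0.794 for the 4 input pairs and 0.604 to 0.949 for the 4 polysome pairs). Each comparison was therefore also fitted with a term for the replicate number, called the replicate block, and that value is given where it alters a call. A call means an adjusted p under 0.05. Levels are given as CPM of the counts in tested genes, scaled between libraries by the trimmed mean of M values (TMM).

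Since MYC network proteins read the E-box, the promoters of the members were searched for CACGTG, which is its own reverse complement, from 250 bases before to 50 bases after the annotated start (RefSeq, GRCm38.p6). RefSeq promoters were matched for 9 of the 10 members, all except Myc, and 3 of the 9 held the motif, as did 8.09% of 27025 genes with a promoter. The 3 are shown because they are MAX itself and a pair of the antagonists of MYC that bind it. In Max the motif begins 3 bases before the start, in Mxd4 219 bases and in Mnt 123 bases before it. The stretches around it, on the strand of each gene and with the motif in capitals, were read from chr12:76962221-76962276 (minus strand) for Max, chr5:34187899-34187954 (minus strand) for Mxd4 and chr11:74830776-74830831 (plus strand) for Mnt.
Max: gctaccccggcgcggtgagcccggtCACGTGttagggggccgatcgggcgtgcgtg
Mxd4: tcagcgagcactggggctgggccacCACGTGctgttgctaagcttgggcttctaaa
Mnt: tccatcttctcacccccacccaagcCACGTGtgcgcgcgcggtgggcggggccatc

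To place the members on one scale, CPM was divided by the length of all annotated exons of each gene in kilobases (GENCODE M21, GRCm38). In control input, Mga (19.9 ± 2.17 CPM per kb), Mycn (19.4 ± 2.60) and Max (16.9 ± 0.94) stood highest, and the libraries of neighbours in that order overlapped. Myc followed at 5.97 ± 1.02 CPM per kb, below every library of Max, and then came Mxd3 (4.27 ± 0.57), Mnt (3.87 ± 0.33), Mxi1 (2.66 ± 0.15), Mxd1 (1.11 ± 0.06), Mycl (0.867 ± 0.38) and Mxd4 (0.616 ± 0.19; SD, n = 4 for each). Myc, Mxd3 and Mnt overlapped in turn, as did Mxd1, Mycl and Mxd4, whereas Mxi1 was separate from both of its neighbours. In RAM siRNA input the order of the first 7 was the same, and Mxd4 stood eighth at 1.42 ± 0.15 CPM per kb, ahead of Mycl (1.17 ± 0.29) and Mxd1 (1.11 ± 0.12), with overlap between Mxd4 and Mycl and between Mycl and Mxd1. These are levels of messages per length, not of proteins.

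Mycn was the predominant MYC message of these cells. The gene (chr12:12936093-12941914, minus strand) encodes N-MYC, the family member most associated with embryonic and neural progenitors. Control input libraries had 59.0, 58.6, 61.3 and 76.6 CPM and RAM siRNA input libraries 58.0, 61.5, 60.8 and 74.1 CPM. The ranges nearly coincide, and replicate 4 was the highest in both groups. The log2 fold change was -0.01 (95% interval -0.23 to 0.21, adjusted p = 0.968), which bounds any difference to between 0.854 and 1.16 times the control level. In polysomes the control libraries had 113, 106, 99.8 and 110 CPM and the RAM siRNA libraries 98.8, 121, 84.2 and 97.2 CPM, overlapping groups again (log2 fold change -0.05, 95% interval -0.37 to 0.28, adjusted p = 0.986). Per length, Mycn made up 74.0% ± 2.02 of the 3 MYC messages in control input and 71.9% ± 2.95 in RAM siRNA input (SD, n = 4 each).

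Myc (chr15:61985391-61990374, plus strand) encodes c-MYC, whose message and protein turn over rapidly. Its level in input was 16.7, 16.5, 12.5 and 19.2 CPM in the control and 19.4, 18.0, 14.9 and 16.8 CPM with RAM siRNA. The groups overlapped, with replicate 3 the lowest in each. Its log2 fold change was 0.09 (95% interval -0.19 to 0.36, adjusted p = 0.709). In polysomes Myc had 23.7, 19.1, 14.8 and 21.5 CPM in the control and 22.9, 28.2, 12.8 and 23.4 CPM with RAM siRNA. The groups overlapped there as well, and the value was 0.19 (-0.33 to 0.70, adjusted p = 0.955). Myc was not past the threshold with the replicate block in either fraction (adjusted p = 0.382 and 0.444).

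Mycl (chr4:122995652-123002485, plus strand) encodes L-MYC, the least abundant of the MYC messages here. Control input had 2.91, 1.75, 4.05 and 5.29 CPM and RAM siRNA input 4.59, 4.00, 3.92 and 6.45 CPM, from 35 to 114 counts a library. The groups overlapped, and RAM siRNA was the higher in 3 of 4 same-numbered pairs. In input the log2 fold change was 0.44 (SE 0.28, adjusted p = 0.333), and with the replicate block 0.45 (SE 0.16, adjusted p = 0.0262), a call that was lost without replicate 1 (adjusted p = 0.143) or replicate 2 (0.158). In polysomes the control libraries had 2.33, 2.07, 2.59 and 3.81 CPM and the RAM siRNA libraries 3.62, 1.83, 4.91 and 6.23 CPM, again higher in 3 of 4 pairs. The polysome log2 fold change was 0.67 (SE 0.37, adjusted p = 0.678), and with the block 0.63 (SE 0.19, adjusted p = 0.0372), which was past the threshold without replicate 2 and was lost without replicate 1, 3 or 4 (adjusted p = 0.127, 0.199 and 0.191).

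Max (chr12:76937269-76962201, minus strand), the shared partner, had the smallest standard error of the members in input, 0.08. Its control input libraries had 60.3, 57.4, 60.6 and 65.5 CPM and its RAM siRNA input libraries 59.2, 58.7, 55.6 and 68.2 CPM. The RAM siRNA range encloses the control range. The log2 fold change was -0.01 (95% interval -0.18 to 0.15, adjusted p = 0.923), so that in input a difference beyond 0.883 to 1.11 times the control level lies outside the interval. In polysomes Max had 34.3, 29.2, 30.7 and 48.2 CPM in the control and 29.4, 23.8, 35.7 and 52.3 CPM with RAM siRNA, with replicate 4 the highest of each group. There the log2 fold change was 0.04 (95% interval -0.57 to 0.65, adjusted p = 0.995), and its sign turned with library totals, without the low-count filter and in the fit of all 16 libraries.

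**Figure D1:**
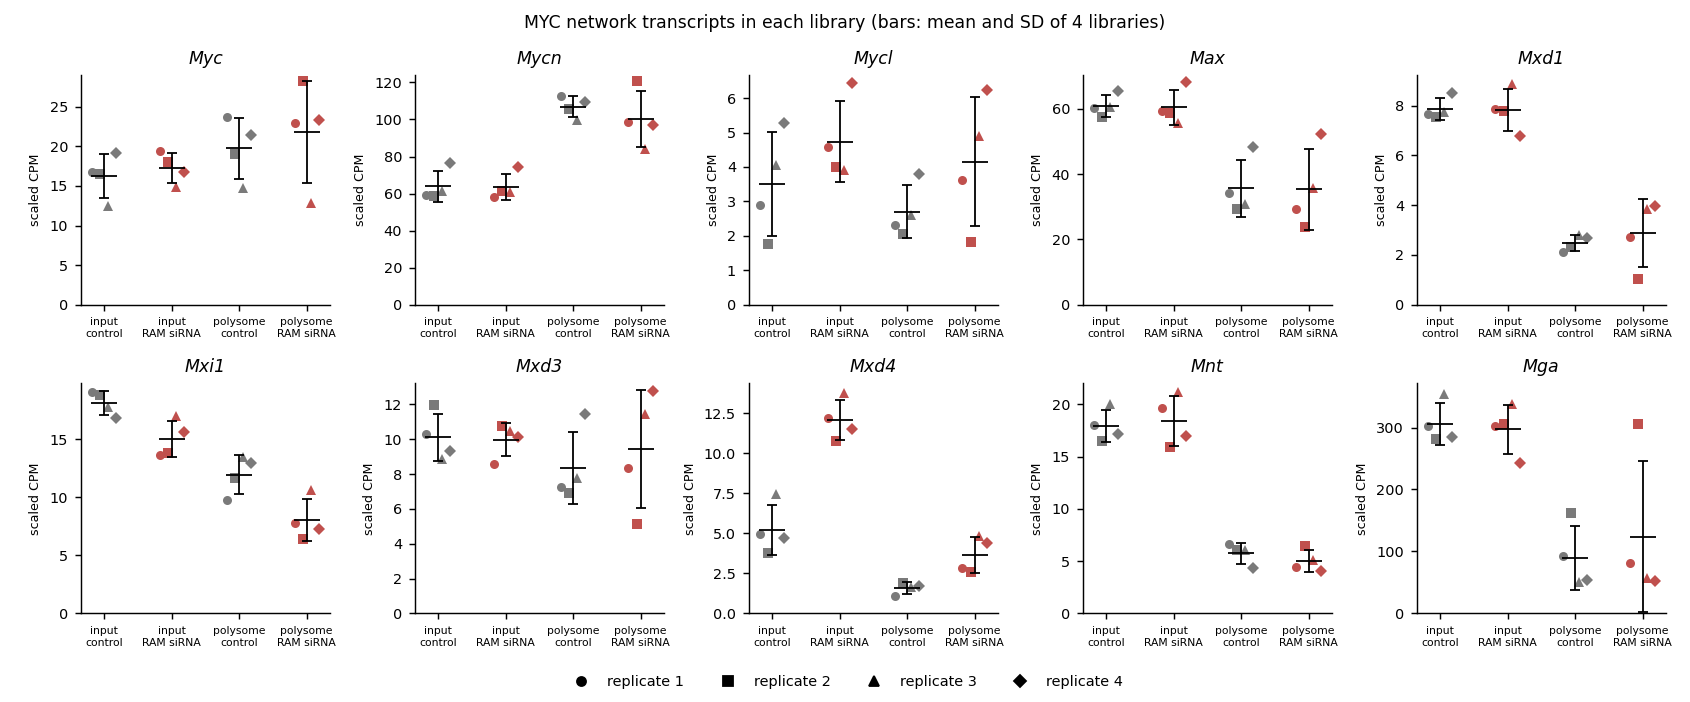
Level of each of the 10 MYC network transcripts (vertical axis, TMM-scaled CPM, from 0) in the 4 libraries of each group (horizontal axis). Grey is control and red RAM siRNA, symbols mark the replicate number, and black bars give the mean and SD. Mxd4 is the 1 panel in which the RAM siRNA libraries lie above all control libraries in both fractions, and Mga polysomes show replicate 2 of RAM siRNA at 305.0 CPM, far above the other 3.

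Mxd4 was the member that differed most with RAM siRNA. It lies at chr5:34173883-34187720 on the minus strand and encodes MAD4, an MXD repressor associated with cells that leave the cell cycle and differentiate. In input it had 4.97, 3.76, 7.45 and 4.73 CPM in the control and 12.2, 10.8, 13.7 and 11.5 CPM with RAM siRNA, from 75 to 136 and from 186 to 256 counts. Every RAM siRNA library lay above every control library. The mean went from 5.23 ± 1.57 to 12.1 ± 1.26 CPM (SD over 4 libraries), which is 1.21 on the log2 scale (SE 0.18, adjusted p = 0.0012), or 2.31 times the control level with a 95% interval of 1.77 to 3.01. It was the 162nd smallest of 12805 p-values, it was higher in 4 of 4 pairs, and the call held in all 18 alternatives (adjusted p from 6.6e-10 to 0.0089).

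In polysomes Mxd4 had 1.08, 1.91, 1.64 and 1.71 CPM in the control and 2.83, 2.58, 4.81 and 4.39 CPM with RAM siRNA, from 20 to 36 and from 45 to 96 counts. Again no RAM siRNA library fell within the control range. The log2 fold change of 1.26 (SE 0.30) missed the threshold in the fit that had no block (adjusted p = 0.170), where only 3 of 12805 genes passed, and met it in the blocked fit (1.23, SE 0.21, adjusted p = 0.0013). That blocked call held without each replicate number in turn (adjusted p from 1.2e-05 to 0.0118). Mxd4 messages made up 7.20% ± 2.42 of the 4 MXD messages per length in control input and 15.9% ± 1.48 in RAM siRNA input, and 3.24% ± 0.78 and 7.29% ± 0.98 in polysomes (SD, n = 4 each). Beside this, the summed ESC markers were lower in RAM siRNA input. Of 4 tested endoderm markers Gata6 (0.61) and Dab2 (0.55) were called higher, where 12.9% of all genes were called in either direction. Sox17 had 0.49 (adjusted p = 0.351) and Sox7 -0.77 (adjusted p = 0.0573, and with the block called lower, adjusted p = 0.0011). Of 5 tested neural markers none was called, with estimates from -0.50 to 0.42. With the block 1 neural marker was lower and 1 higher, where 39.3% of all genes were called. The part of any of these sets in the Mxd4 values was not tested. The antisense gene Gm42846, whose exons overlap those of Mxd4, had 0 counts in all 16 libraries.

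Mxi1 (chr19:53310518-53375810, plus strand) encodes MXI1, a further MXD repressor, and had estimates of the opposite sign. Control input had 19.1, 18.8, 17.8 and 16.8 CPM and RAM siRNA input 13.6, 13.8, 17.0 and 15.6 CPM. The groups overlapped by a single library, RAM siRNA replicate 3, but RAM siRNA was the lower in 4 of 4 pairs. The log2 fold change was -0.28 (SE 0.10, adjusted p = 0.0797), and with the block -0.28 (SE 0.08, adjusted p = 0.0100). Without RAM siRNA replicate 3 the fit without a block passed the threshold (adjusted p = 0.044), and the blocked call was lost without replicate 1 (adjusted p = 0.110) or replicate 2 (0.0613).

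In polysomes Mxi1 had 9.75, 11.7, 13.4 and 12.96 CPM in the control and 7.78, 6.42, 10.7 and 7.29 CPM with RAM siRNA, lower in 4 of 4 pairs. The log2 fold change was -0.52 (SE 0.22, adjusted p = 0.540), and with the block -0.53 (SE 0.14, adjusted p = 0.0207), a call lost without replicate 4 (adjusted p = 0.103). The 3′ UTR of Mxi1 is shown because it holds ACTATC, letters found in 18.5% of 12068 genes with an annotated 3′ UTR, of which 13.6% were called lower in RAM siRNA input against 4.57% of the genes without them. The longest annotated 3′ UTR of Mxi1 (4074 bases, GENCODE M21) holds 3 copies on the message strand, at bases 1111, 3074 and 3942, here in capitals with their flanks.
Mxi1 base 1111: atagtagacatACTATCctagttaacat
Mxi1 base 3074: tcttgaaagccACTATCtttccctttta
Mxi1 base 3942: ttccagccctaACTATCctcccagcccc
Mycl, Mxd1 and Mnt also hold ACTATC in an annotated 3′ UTR, and no member holds the longer ACTATCA. The shares above come from the fit without the block, in which Mxi1 itself was not called lower in input (adjusted p = 0.0797). Nor were these other holders (log2 fold change 0.44, -0.01 and 0.04). With the block Mxi1 was called lower. The shares were not adjusted for 3′ UTR length. The same 3′ UTR of Mxi1 also holds TGCTCA, at bases 309 and 2398, as do annotated 3′ UTRs of Myc, Mxd1 and Mxd4, and 8.65% of the genes with TGCTCA were called higher in input against 5.89% of those without. Both strings were searched because earlier results of these same data had associated them with genes that differed in input, so these shares are no independent support. Whether these letters play a part in the level of Mxi1 was not tested.

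The other antagonists did not differ beyond their spread in input. Mxd1 (chr6:86647042-86669161, minus strand), which encodes the founding MXD repressor MAD1, had 7.52 to 8.50 CPM in control input and 6.79 to 8.86 CPM in RAM siRNA input (log2 fold change -0.01, 95% interval -0.25 to 0.24, adjusted p = 0.978). Mxd3 (chr13:55325168-55329823, minus strand), an MXD gene associated with S phase, had 8.87 to 11.9 and 8.57 to 10.7 CPM (-0.03, 95% interval -0.28 to 0.23, adjusted p = 0.918), and its exons overlap those of Prelid1 on the other strand, which had 2353 to 2730 counts in the input libraries. The library kit keeps strand, but how strand was set in counting is not given in the sources used here, so reads of Mxd3 and Prelid1 may be shared. Mnt (chr11:74830920-74845725, plus strand), which encodes the most broadly expressed antagonist, had 16.4 to 20.0 and 15.9 to 21.1 CPM (0.04, 95% interval -0.20 to 0.27, adjusted p = 0.859).

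In polysomes these 3 antagonists also overlapped between groups. Mxd1 had 2.11 to 2.82 CPM in the control and 1.03 to 3.97 CPM with RAM siRNA (log2 fold change 0.28, adjusted p = 0.963), and Mxd3 had 6.94 to 11.4 and 5.16 to 12.8 CPM (0.23, adjusted p = 0.960). In both the lowest library was RAM siRNA replicate 2. Mnt had 4.32 to 6.61 and 4.09 to 6.48 CPM (-0.15, adjusted p = 0.966).

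Mga (chr2:119897228-119969581, plus strand) has the longest exon sequence of the members, 15340 bases. Its input libraries had 302, 282, 354 and 285 CPM in the control and 302, 306, 338 and 242 CPM with RAM siRNA. The ranges overlap broadly (log2 fold change -0.04, 95% interval -0.28 to 0.19, adjusted p = 0.836). In polysomes the control libraries had 93.3, 162, 50.9 and 54.0 CPM and the RAM siRNA libraries 81.6, 305.0, 56.5 and 52.0 CPM. Replicate 2 was the highest library of both groups, and RAM siRNA replicate 2 stood at its input level.

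The polysome log2 fold change of Mga was 0.50 (95% interval -0.84 to 1.83, adjusted p = 0.951), and without RAM siRNA replicate 2 it was -0.44 (adjusted p = 0.587). With the block it was 0.26 (95% interval -0.06 to 0.58, adjusted p = 0.284). The share of all counts that fell in the 1549 genes with over 10 kb of exon moved with Mga across the polysome libraries: it was 10.2% in RAM siRNA replicate 2 and 8.52% in control replicate 2, 7.05% and 7.46% in the replicates numbered 1, and 5.34% to 5.98% in the other four. In the 8 input libraries it was 9.89% to 11.6%. Whether this share plays a part in the polysome values of Mga was not tested.

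**Figure D2:**
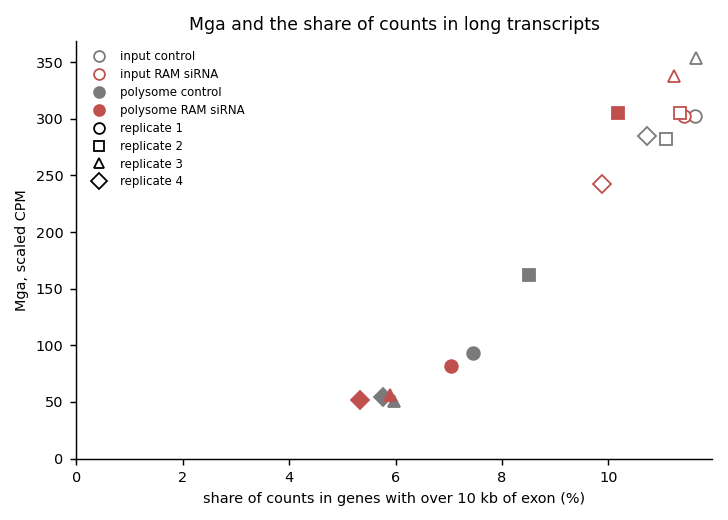
Mga level (vertical axis, TMM-scaled CPM) against the share of counts in the 1549 genes with over 10 kb of exon (horizontal axis, percent), both axes from 0, with 1 point per library. Open symbols are input, filled symbols polysomes, grey control, red RAM siRNA, and shape gives the replicate. RAM siRNA polysome replicate 2 (10.2%, 305.0 CPM) lies among the input libraries, and the other 7 polysome libraries lie at up to 8.52% and 162 CPM.

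Counted over the 10 members, 1 was called in input without the block (Mxd4, higher), where 12.9% of all genes tested were called. With the block, 3 were called in input (Mxd4 and Mycl higher, Mxi1 lower), where 39.3% of all genes were called. In neither fit was the share of members called above that of all genes. In polysomes 0 of 10 were called without the block, where 0.0234% of all genes were called (1152 genes had an unadjusted p under 0.05, among them Mxi1 and Mxd4), and DESeq2 called 1, Mxd4. With the block 3 were called, the same genes in the same directions as in input, where 14.6% of all genes were. Ramac, the target of the siRNA, was itself not called in polysomes without the block (log2 fold change -2.52, adjusted p = 0.128). The median log2 fold change of the members was -0.01 in input and 0.21 in polysomes, against 0.00070 and 0.06 over all genes tested.

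**Figure D3:**
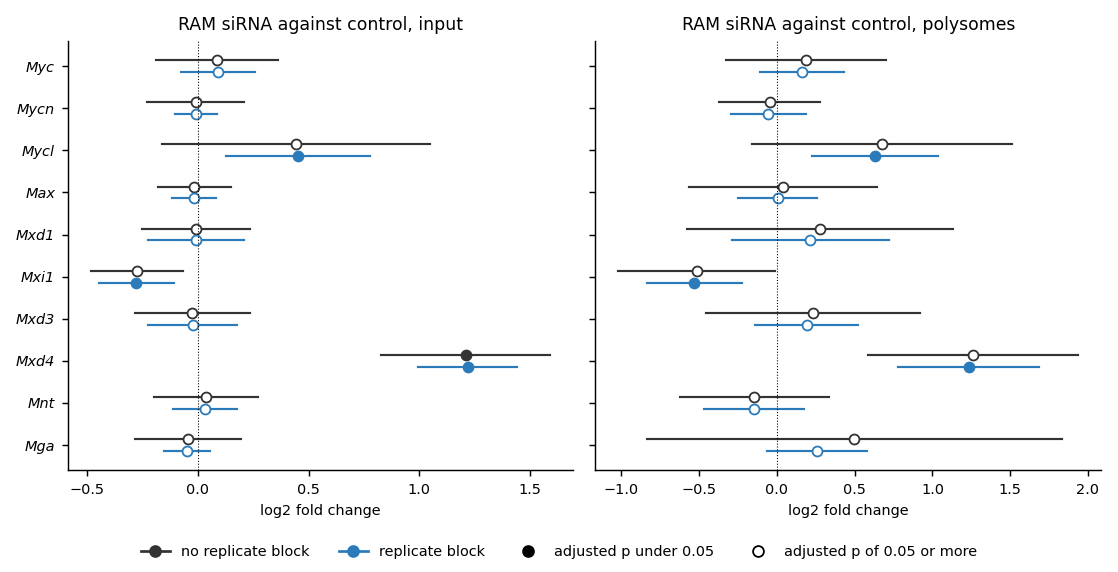
Log2 fold change of RAM siRNA against control for each member (horizontal axis) in input (left) and polysomes (right), with 95% intervals. Black gives the fit without and blue the fit with the replicate block, and filled points have an adjusted p under 0.05. Mxd4 lies at 1.21 in input and 1.26 in polysomes, and the intervals of Myc, Mycn, Max, Mxd1, Mxd3, Mnt and Mga include 0 in both panels and both fits.

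The polysome to input ratio of scaled CPM was used as a measure of how far a message was carried by polysomes. It is relative to all other messages, since TMM-scaled CPM does not keep differences in total RNA between libraries. In the control, Mycn was the 1 member with a higher share in polysomes: its ratios were 1.91, 1.80, 1.63 and 1.43 in replicates 1 to 4, all above 1 (log2 ratio 0.71, SE 0.12, adjusted p = 2.6e-04). Myc had ratios of 1.42, 1.15, 1.18 and 1.12, also all above 1, but was not called (log2 ratio 0.25, SE 0.17, adjusted p = 0.214). Per length, Mycn made up 80.5% ± 2.14 of the 3 MYC messages in control polysomes (SD, n = 4), 4.57 ± 0.72 times the level of Myc.

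Max, Mga, Mnt, Mxd1, Mxd4 and Mxi1 were called lower in polysomes than in input in the control. Max had control ratios of 0.569, 0.510, 0.507 and 0.735, all below 1 (log2 ratio -0.81, SE 0.16, adjusted p = 8.2e-04). The lowest log2 ratios were those of Mga (-1.80, adjusted p = 4.0e-04), Mxd4 (-1.75, adjusted p = 1.0e-04), Mxd1 (-1.69, adjusted p = 3.9e-06) and Mnt (-1.67, adjusted p = 3.1e-06), each at no more than 0.573 of the input level in any control replicate, and that of Mxi1 was smaller (-0.63, adjusted p = 0.0015). Mycl (-0.40, adjusted p = 0.279) and Mxd3 (-0.31, adjusted p = 0.157) were not called, and Mxd3 was called without control polysome replicate 4 (-0.51, adjusted p = 0.0087). In all, 6 of 10 members were called lower and 1 higher, where 67.4% of all genes were called in either direction, 4388 lower and 4240 higher, and the medians were -0.72 for the members and -0.00079 for all genes. The block gave the same count, where 72.3% of all genes were called.

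With RAM siRNA the ratios had the same order at the top, with Mycn at 1.70, 1.97, 1.39 and 1.31 (log2 ratio 0.66, SE 0.16, adjusted p = 0.0058). Mnt (-1.86, adjusted p = 4.6e-05), Mxd4 (-1.70, adjusted p = 2.9e-04), Mxd1 (-1.41, adjusted p = 0.0060), Mxi1 (-0.88, adjusted p = 0.0045) and Max (-0.76, adjusted p = 0.0189) were called lower, the last not without RAM siRNA input replicate 4 (adjusted p = 0.0545) or polysome replicate 1 (0.0596). Mga had ratios of 0.270, 0.998, 0.167 and 0.215 (log2 ratio -1.27, SE 0.50, adjusted p = 0.0531) and was called with the block (-1.69, adjusted p = 0.0078) and without polysome replicate 2 (-2.23, adjusted p = 1.4e-06). Myc (0.34, adjusted p = 0.202) was called only without polysome replicate 3 (0.50, adjusted p = 0.0292). In all, 6 of 10 members were called where 53.3% of all genes were, and 7 with the block where 58.8% were.

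The change of this ratio by RAM siRNA was tested as an interaction of fraction and siRNA over all 16 libraries. The study reported fewer polysomes relative to monosomes with RAM siRNA, and a fall shared by all messages cannot show in a scaled ratio. By its own analysis the study also found a small number of genes with altered loading. None of the 10 members was called, and neither was any other gene (0% of 12805, with 100 genes at an unadjusted p under 0.05, none of them a member). The block gave 0% as well, and a block within each fraction called 0.0156% of all genes and no member. DESeq2 called 1 gene, not a member. The estimates ran from -0.30 for Mxi1 (95% interval -0.75 to 0.16) to 0.50 for Mga (-0.90 to 1.90). Mxd4 had been called higher in input, and in polysomes with the block but not without it. For Mxd4 the estimate was -0.0018 (-0.73 to 0.72), for Mycn -0.09 (-0.49 to 0.31), for Myc 0.05 (-0.57 to 0.68) and for Max -0.00090 (-0.61 to 0.60). As folds of the control ratio, these intervals run from 0.714 to 1.24 for Mycn and from 0.604 to 1.65 for Mxd4. The ratio of Mxd4 was 0.218, 0.507, 0.220 and 0.361 in the control and 0.232, 0.239, 0.3498 and 0.380 with RAM siRNA, ranges that overlap.

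**Figure D4:**
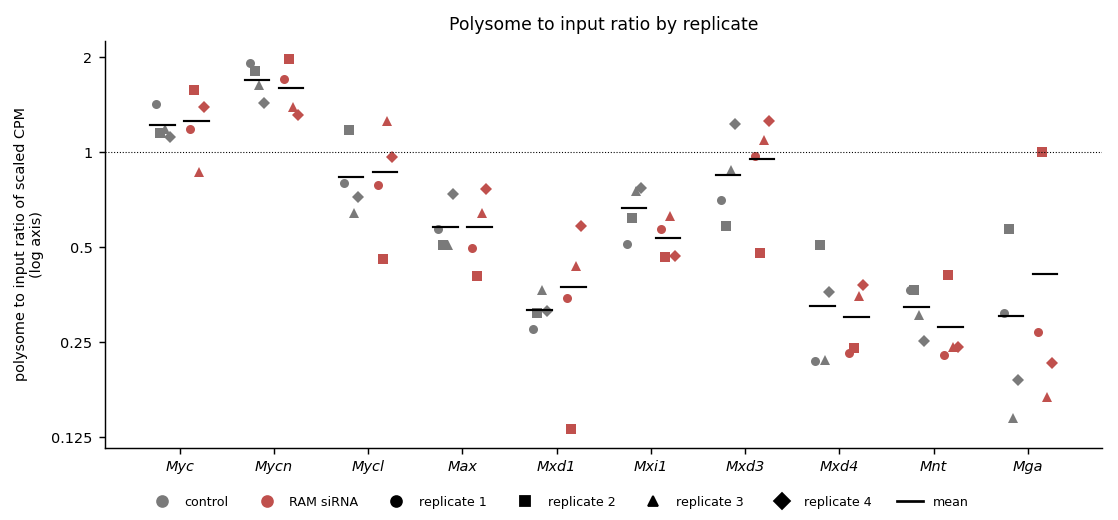
Polysome to input ratio of scaled CPM (vertical axis, log scale) for each member, with 1 point per replicate, grey for control and red for RAM siRNA, and a black line at the mean. Mycn lies above 1 in all 8 replicates, and Max, Mxd1, Mxi1, Mxd4, Mnt and Mga lie below 1, with Mga in RAM siRNA replicate 2 at 0.998.

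Over all 16 libraries, the genes whose log2 CPM most resembled that of a member were chosen by Pearson's r among the genes tested. For Mycn these were Xrcc6 (r = 0.988), Cct2 (0.987) and Rps6ka6 (0.986), for Max Hmgn1 (0.990), Srp9 (0.989) and Gatad1 (0.989), and for Myc Fermt2 (0.906), Nop2 (0.882) and Stk31 (0.882). These values are descriptions over libraries that share replicates and in which the difference between polysomes and input is the main source of spread.

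The proteins that MYC and its antagonists work with were examined as gene lists. Of the SIN3-HDAC corepressor, which MXD and MNT proteins recruit, 13 of 13 genes were tested in input, with 2 called lower, 1 higher and a median of -0.05, where 12.9% of all genes were called. With the block 4 were lower and 3 higher, where 39.3% of all genes were called, and these 2 shares are the background of the input counts that follow. Ing2 (-0.37, SE 0.10, adjusted p = 0.0330) and Ing1 (-0.35, SE 0.08, adjusted p = 0.0162), which read methylated histone H3, were lower. Rbbp7, a histone chaperone, was higher (0.34, SE 0.10, adjusted p = 0.0376). In single-library omissions, Ing2 was called only without RAM siRNA replicate 4 (highest adjusted p of the others 0.0943), Ing1 lost its call without replicate 1 of either group (0.0527 and 0.0600), and Rbbp7 lost it without control replicate 1, 2 or 3 or RAM siRNA replicate 2 (up to 0.104).

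Among 14 genes of the TRRAP, TIP60 and GCN5 coactivators that MYC recruits, 1 was called lower and 0 higher, with a median of -0.04, and 5 were lower and 0 higher with the block. It was Trrap, the large scaffold that MYC binds directly, which had 194, 175, 190 and 147 CPM in control input and 132, 132, 130 and 99.6 CPM with RAM siRNA. No library of one group fell in the range of the other (log2 fold change -0.52, SE 0.11, adjusted p = 0.0104). The call was kept in 17 of 18 alternatives and lost in the fit of all 16 libraries (adjusted p = 0.811). That fit called 186 genes in input, against 1651 in the main fit. In polysomes the libraries of Trrap were widely spread, at 25.0 to 80.0 CPM in the control and 17.0 to 88.4 CPM with RAM siRNA. The medians were 35.9 and 22.6 CPM, and the log2 fold change was -0.19 (adjusted p = 0.986).

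Of 16 regulators of MYC stability and activity, 1 was called lower and 0 higher in input, with a median of -0.05, and 4 were lower and 1 higher with the block. Cip2a, an inhibitor of protein phosphatase 2A that keeps MYC protein from being degraded, had 123, 121, 123 and 125.3 CPM in control input and 91.0, 82.5, 96.7 and 81.4 CPM with RAM siRNA, so the groups were far apart (log2 fold change -0.49, SE 0.07, adjusted p = 0.0014). In polysomes it was -0.77 (SE 0.21, adjusted p = 0.222) unblocked and -0.78 (adjusted p = 3.1e-04) in the blocked fit. In the fit of all 16 libraries the input call was lost (adjusted p = 0.195), and it was kept in 17 of 18 alternatives.

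The MLX branch, a parallel set of partners that senses glucose, had 2 of 3 genes tested and 0 called. Mlx itself had 17.9 to 23.0 CPM in control input and 19.4 to 24.2 CPM with RAM siRNA (log2 fold change 0.07, adjusted p = 0.725).

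Of 24 textbook targets that MYC activates, 0 were called in input and 0 in polysomes by edgeR without the block, where 12.9% and 0.0234% of all genes were called and 3591 and 1152 had an unadjusted p under 0.05, and the medians were 0.02 and 0.01. With the block 4 were lower and 5 higher in input, where 39.3% of all genes were called. The largest difference was that of Ccnd2, which encodes cyclin D2, with 4.07, 5.97, 11.9 and 4.50 CPM in control input and 5.62, 11.2, 12.9 and 7.92 CPM with RAM siRNA, overlapping groups in which replicate 3 was the highest of each (0.51, adjusted p = 0.343, with the block 0.53, adjusted p = 0.0015, and without control replicate 3 0.95, adjusted p = 0.0312). Of the targets that MYC represses through MIZ1, 3 of 4 were tested and 1 was called lower, with 1 lower and 1 higher in the blocked fit. The first was Gadd45a, a stress response gene, which had 61.3 to 67.3 CPM in control input and 42.7 to 48.1 CPM with RAM siRNA (-0.53, SE 0.07, adjusted p = 5.4e-04). Its call was lost in the fit of all 16 libraries (adjusted p = 0.220) and kept in 17 of 18 alternatives.

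Of the 10 other subunits of PRC1.6, the complex built on MGA, 2 were called lower and 1 higher in input, with a median of -0.01, and 4 were lower and 2 higher with the block. Ring1, a ubiquitin ligase of Polycomb complexes, was lower (-0.37, SE 0.09, adjusted p = 0.0206), as was Tfdp1 (-0.27, SE 0.08, adjusted p = 0.0421), the DNA-binding partner of E2F6. Yaf2, an adaptor of RING1 proteins, was higher (0.37, SE 0.11, adjusted p = 0.0448). Each of the 3 lost its call in several single-library omissions: Ring1 without control replicate 1 or 4 or RAM siRNA replicate 1 or 3 (adjusted p up to 0.0656), Tfdp1 without control replicate 1, 2 or 4 or RAM siRNA replicate 1, 2 or 3 (up to 0.131), and Yaf2 in all but that without RAM siRNA replicate 2 (up to 0.116).

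Of 14 germline genes known as targets of MGA, MAX and PRC1.6, 13 were tested in input, and 4 of the 13 were called higher with RAM siRNA and 0 lower, where 890 of 12805 genes were called higher and 12.9% in either direction, and 12 of the 13 had estimates above 0, with a median of 0.37 against 0.00070 over all genes. Tex101, a germ cell surface protein, had 1.85, 1.504, 1.42 and 1.41 CPM in control input and 4.42, 3.54, 4.19 and 3.45 CPM with RAM siRNA (1.33, SE 0.17, adjusted p = 5.3e-04). Taf7l, a germ cell subunit of the TFIID transcription factor, had 19.6, 16.65, 15.1 and 14.2 CPM against 31.01, 29.2, 26.7 and 37.1 CPM (0.92, SE 0.12, adjusted p = 6.2e-04). Dazl, an RNA-binding protein of germ cells, had 90.0, 92.8, 80.6 and 98.1 CPM against 165, 172, 164 and 159 CPM (0.87, SE 0.07, adjusted p = 6.1e-05). In these 3 genes no RAM siRNA library overlapped the control. The list was chosen with earlier results of these data known, so its counts and median are descriptions.

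Stag3, a meiotic cohesin subunit named after its values were seen, was the other call (0.27, SE 0.07, adjusted p = 0.0298), and it was lost in 6 of 8 single-library omissions, kept only without replicate 3 of the control or 4 of RAM siRNA (highest adjusted p 0.101). With the block 8 of the 13 were called higher in input, where 39.3% of all genes were called. In polysomes 0 of 13 were called without the block, and 8 higher with it, where 14.6% of all genes were called. That count was 6, 9, 6 and 4 without replicate 1, 2, 3 and 4. In polysomes Tex101 (1.44), Taf7l (0.83) and Dazl (0.66) again had positive estimates (unblocked adjusted p = 0.0694, 0.0936 and 0.141, blocked 4.2e-05, 3.1e-04 and 0.0010). The E-box was found in the promoters of 8 of the 12 germline genes with a RefSeq promoter and of 8 of 18 MYC targets, against the 8.09% of all genes given above. Both lists hold known targets of MAX and its partners, so these shares are no independent support. Of the 4 genes called in input, Taf7l and Stag3 hold it and are shown, and the windows of Tex101 and Dazl do not. In Taf7l it begins 49 bases before its start on the minus strand (chrX:134476509-134476564), and in Stag3 170 bases before the start on the plus strand (chr5:138280314-138280369).
Taf7l: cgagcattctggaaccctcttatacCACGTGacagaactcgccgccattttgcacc
Stag3: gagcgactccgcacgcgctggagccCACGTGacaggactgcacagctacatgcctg
Beside these rises, the level of Mga itself was 305.7 ± 33.3 CPM in control input and 296.9 ± 40.0 CPM in RAM siRNA input and that of Max 60.9 ± 3.38 and 60.4 ± 5.44 CPM (SD, n = 4 each), and the summed ESC markers were lower, as given above. Whether any of these plays a part in the germline values was not tested.

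**Figure D5:**
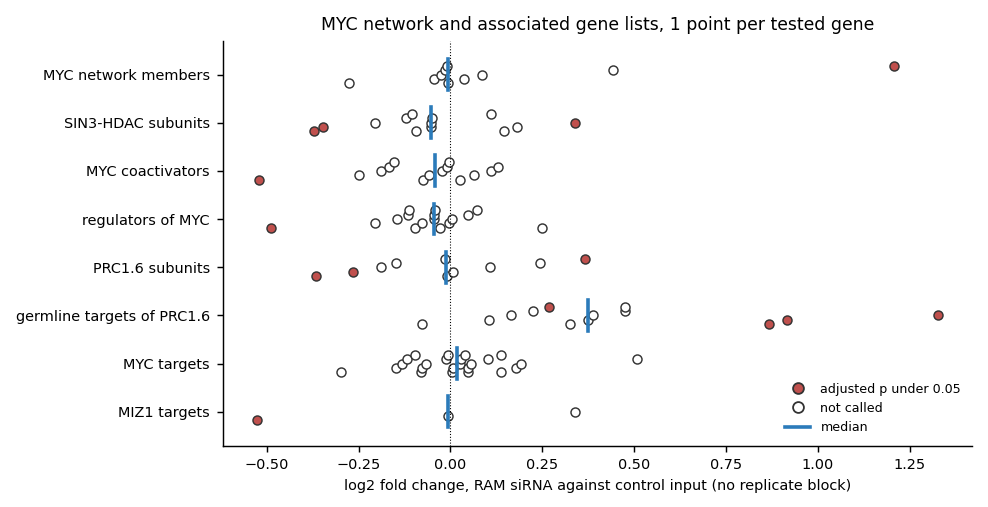
Log2 fold change in input without the replicate block (horizontal axis) of each tested gene in the MYC network and 7 associated lists (rows), with 1 point per gene, red for an adjusted p under 0.05 and blue lines at the medians. The germline targets sit to the right with a median of 0.37, and the medians of the other 7 rows lie between -0.05 and 0.02. The lists were chosen with earlier results of these data known.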

How the data were processed

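Input and polysome RNA of 46C ESCs was sequenced after ribosomal RNA removal with a kit that keeps strand, in 16 libraries of 4 groups. The deposited values are raw counts of reads per Ensembl gene, and per the labels and the submitters' processing notes the authors used bcl2fastq, STAR 2.5.1b, HTSeq and edgeR with genome build mm10. The strand setting and the annotation release of the counting are not given in the sources used here. The counts cover 16647523 to 20147833 reads per library.

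Genes that reached 1 CPM in 10 or more of the 16 libraries were tested in edgeR 4.0.16 (R 4.3.3) with TMM scaling and the quasi-likelihood test, and p-values were adjusted by Benjamini-Hochberg over all genes tested. Adjusted p-values in the text come from this test unless DESeq2 is named. The libraries of the groups compared entered each fit, and all 16 entered the interaction. The study's methods state no replicate block, so the main fits had none. They called 761 genes lower and 890 higher in input, and the block gave 2433 and 2595. The numbers the study reported for input were near those with the block. The replicate numbers did pair the samples: same-numbered libraries had correlated deviations in all comparisons. Their mean r over 4 pairs was 0.624 in input, 0.840 in polysomes, and 0.400 and 0.460 between input and polysomes of control and RAM siRNA. Differently numbered libraries had mean r of -0.197, -0.273, -0.132 and -0.147 in that order. In polysomes, however, the highest of these (0.666) was above the lowest same-numbered r (0.604). Fits with the block were therefore run as an alternative. Other alternatives were RLE scaling, library totals, no low-count filter, DESeq2 1.42.0, 1 fit of all 16 libraries, leaving out each library, and, chosen after seeing the data, the block without each replicate number. The scripts were tested on simulated data.

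Named were the 10 members, Ramac, and from each gene list up to 3 genes called in input without the block, largest change first, or the 1 with the largest change where none was called. The members and gene lists were chosen with earlier results of these data known, so the counts over lists are descriptions.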

Additional observations from a re-analysis of the deposited data

Results flagged for a closer look

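In a group of 4 libraries, a value was taken up here when its gap to the nearest other library, as a share of the whole range, was above Dixon's 95% critical value. Of 40 sets of member levels 2 met this, and of 20 sets of polysome to input ratios 2 did, where chance gives about 1 in 20. Mycn in control input replicate 4 had 76.6 CPM, against 58.6 to 61.3 CPM in the other 3. Mga in RAM siRNA polysome replicate 2 had 305.0 CPM, against 52.0 to 81.6 CPM in the others, and its polysome to input ratio there was 0.998, against 0.167 to 0.270. Mnt had a ratio of 0.408 in the same replicate, against 0.228 to 0.242 in the others. That polysome library also had the highest share of counts in long genes among the 8 polysome libraries, 10.2%. The part of this share in these values was not tested.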

How the results depend on the processing

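The replicate block raised the genes called from 1651 to 5028 in input and from 3 to 1875 in polysomes, and the members called from 1 to 3 and from 0 to 3. In 1 fit of all 16 libraries 186 genes were called in input and 453 in polysomes, and 1 member in polysomes, and the input calls of Ing1, Ing2, Rbbp7, Trrap, Cip2a, Ring1, Yaf2, Tfdp1, Gadd45a and Stag3 were lost (adjusted p from 0.157 for Ring1 to 0.811 for Trrap). DESeq2 called 300 genes and 1 member in polysomes and 1 gene for the change of the ratio, where the block within each fraction called 2. Without the low-count filter 39 genes were called in polysomes. The input calls of Yaf2 (adjusted p = 0.098) and Stag3 (0.088) were also lost without that filter. Library totals lost those of Rbbp7 (adjusted p = 0.063) and Yaf2 (0.072). Leaving out 1 library gave 913 to 2506 genes and 1 to 2 members in input, and 0 to 48 genes and 0 members in polysomes. With the block and without replicate 1, 2, 3 or 4, input gave 3579, 4026, 4231 and 4967 genes, with 3 members called without replicate 3 or 4 and 1 otherwise. Polysomes gave 806, 4558, 1197 and 918 genes and 2, 5, 2 and 1 members, and without replicate 2 the added members were Mxd1 (0.52, adjusted p = 0.0310) and Mxd3 (0.36, adjusted p = 0.0285).

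Of 870 member values under the alternatives, 766 kept their direction and side of the threshold, 29 passed it, 2 lost it and 73 changed sign, none of them called. Changes of sign were as follows. Polysome Max was -0.0056 with library totals, -0.017 without the filter and -0.013 in the fit of all 16 libraries. The Mxd3 ratio with RAM siRNA was 0.059 without the filter. The change of the ratio for Max and Mxd4 was 0.037 and 0.040 with RLE scaling, 0.030 and 0.023 with library totals, 0.075 and 0.073 without the filter, and 0.037 and 0.042 with DESeq2. With the block, input Mxd3 was 0.057 without replicate 1 and 0.026 without replicate 2, input Max 0.018 without replicate 3, input Mycn 0.0097, Mxd1 0.094 and Mga 0.015 without replicate 4, and polysome Max -0.093 without replicate 3 and -0.081 without replicate 4. Over the omissions of 1 library, input ranged from -0.020 to 0.17 for Myc, -0.087 to 0.088 for Mycn, -0.075 to 0.020 for Max, -0.076 to 0.058 for Mxd1, -0.083 to 0.065 for Mxd3, -0.040 to 0.10 for Mnt, -0.12 to 0.045 for Mga and -0.012 to 0.14 for Mlx. Polysomes ranged from -0.14 to 0.0021 for Mycn, -0.23 to 0.20 for Max and -0.44 to 0.95 for Mga. The ratio with RAM siRNA ranged from -0.45 to 0.054 for Mycl and -0.26 to 0.12 for Mxd3. Its change ranged from -0.095 to 0.24 for Myc, -0.19 to 0.052 for Mycn, -0.077 to 0.46 for Mycl, -0.25 to 0.18 for Max, -0.22 to 0.18 for Mxd4 and -0.46 to 0.95 for Mga. The cause of these shifts was not tested.

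Counts per library were lowest for Mycl, Mxd1 and Mxd4 in polysomes (down to 32, 18 and 20), which limits their precision. Polysome libraries varied more than input libraries, so that polysome fits without the block bound changes loosely.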
